A study of Mus musculus with 15 samples.

Results

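Cd38 and Bst1 encode the mouse NAD glycohydrolases of the ADP-ribosyl cyclase family, and their RNA was followed in hematopoietic stem cells (HSC) from young, aged and nicotinamide riboside (NR)-treated aged mice. The members were chosen by name in the table of counts per gene, and 1 of the 2 names, Cd38, was analysed among the 16154 genes of that table. Bst1 was not analysed here. Young C57BL/6 mice were 6 to 12 weeks old, and aged C57BL/6 mice were 20 to 24 months old. NR-treated aged mice of the same age and strain received NR at 3 mg/ml in drinking water for 2 months. Each group held 5 libraries, each from HSC of a single mouse by the study's methods, and the labels give the mice as female. The labels give no transgene or allele.

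CD38 is a cell surface enzyme that cleaves NAD into nicotinamide and ADP-ribose and also forms cyclic ADP-ribose, which releases calcium from internal stores. It also degrades nicotinamide mononucleotide outside the cell, and its activity is known to rise with age in several mouse tissues. BST1, also named CD157, is a paralog held at the membrane by a lipid anchor. NR is a precursor of NAD that enters the salvage route through nicotinamide riboside kinases. CD38 is carried by HSC subsets and by B cells, plasma cells and other lymphocytes.

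Cd38 (ENSMUSG00000029084.5) lies on the plus strand of chromosome 5 at 43868553 to 43912375 in build GRCm38, in GENCODE M21. Its 8 exons hold 3270 bases, of which 912 are coding. The last exon, at 43910280 to 43912375, holds 2096 bases, and 2035 of these follow the last coding base. The libraries were 3′ biased, so reads are drawn mainly from the end of a transcript. No other annotated gene overlaps an exon of Cd38, although the noncoding genes Gm16014 and Gm16015 lie inside it, the latter on the opposite strand. The sources used here do not state whether counting used strand. Bst1 ends 24.566 kb upstream of Cd38, at 43818885 to 43843986.

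The total count per library ranged from 764119 (aged replicate 2) to 13318989 (aged replicate 3), and 3 counts, taken as the floor of detection, equalled between 0.254 and 3.89 CPM, the count scaled to a common library size. Y-linked transcripts (4 genes) summed to 99.7 CPM in young replicate 1 and 105 CPM in young replicate 5, whereas the other 13 libraries held 0.731 to 3.00 CPM. The same 2 libraries also held Xist, a transcript of female cells, at 420 and 472 CPM, beside 293 to 895 CPM in the other 13. These 2 libraries thus went against the label of female mice, and whether each came from a single mouse was not tested. The tests were also run without them, and calls that were then lost are given beside the genes concerned. All 10 HSC markers listed were measured, including Slamf1 (CD150), Kit, Ly6a (Sca-1) and Procr (EPCR), and their summed level was 1379 to 1749 CPM in young, 1585 to 2005 CPM in aged and 1477 to 1937 CPM in NR-treated aged HSC. Genes of mature blood cells (47 genes) took 0.156 to 1.26% of counts in young, 0.950 to 1.09% in aged and 0.150 to 0.275% in NR-treated aged HSC. CPM values use TMM library sizes. Unless another test is named, p-values are those of the quasi-likelihood test in edgeR, adjusted over all 16154 genes by the method of Benjamini and Hochberg. A gene was called at an adjusted p under 0.05.

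Cd38 was low in young HSC, 3.69-fold higher in aged HSC and lower again by 2.19-fold in HSC from NR-treated aged mice. Young replicates 1 to 5 held 27, 36, 34, 37 and 59 Cd38 counts, or 9.47, 14.5, 15.3, 13.4 and 15.9 CPM. Aged replicates 1 to 5 held 356, 43, 648, 250 and 241 counts, or 51.4, 55.8, 54.8, 44.4 and 48.4 CPM. The 5 aged levels therefore lay close together although their totals were the most unequal, and every aged library lay above every young library. NR-treated aged replicates 1 to 5 held 88, 108, 10, 56 and 121 counts, or 24.9, 32.2, 3.89, 20.5 and 32.9 CPM. Replicates 1, 2, 4 and 5 of that group lay between the young and aged libraries, and replicate 3 lay below all young libraries.

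**Figure D1:**
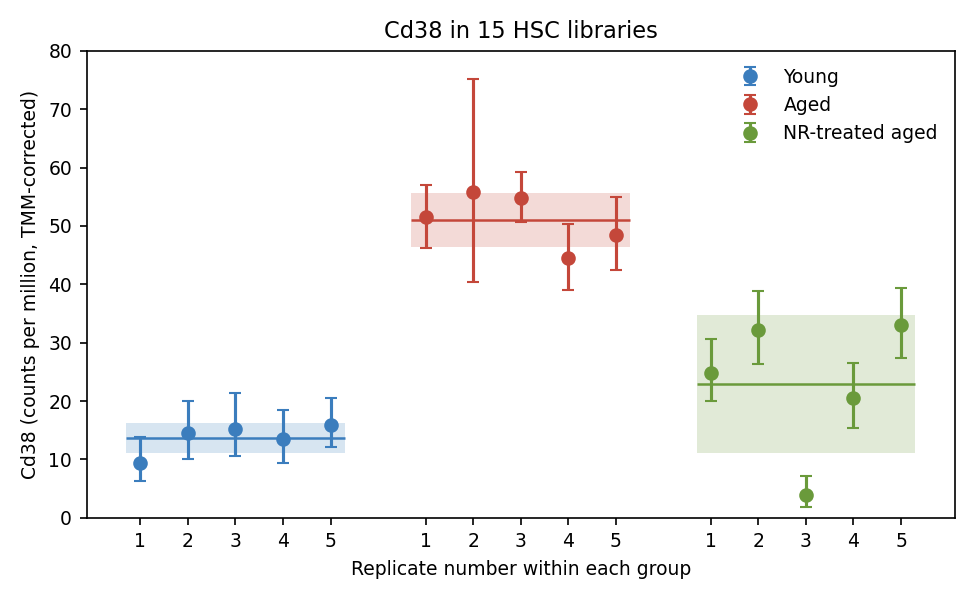
Level of Cd38 in CPM (y axis, TMM-corrected) in each of the 15 HSC libraries (x axis, replicate number within the group). Bars are exact Poisson 95% intervals for counting error only, and lines with bands are group means ± SD (n = 5). The aged libraries sit between 44.4 and 55.8 CPM, above all others, and NR-treated aged replicate 3 sits at 3.89 CPM, below all others.

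The mean level of Cd38 was 13.7 ± 2.54 CPM in young HSC (SD, n = 5) and 51.0 ± 4.66 CPM in aged HSC (SD, n = 5). The log2 fold change was 1.88 (standard error 0.31, 95% interval 1.24 to 2.53, adjusted p = 0.000325), with the aged library higher in 25 of 25 pairs of libraries. Of all genes tested, 9.68% were called higher and 9.63% lower in aged HSC, and 6.86% were higher and 5.53% lower without overlap of libraries. Cd38 ranked 298th by p among all genes and 246th among those with higher levels in aged HSC. An exact permutation test of log2 CPM gave a difference of 1.87 (two-sided, adjusted p = 0.0119 over the 3 contrasts, from the smallest p that 5 libraries against 5 allow). Cd38 was called in all 15 fits that left out 1 library. Without young replicates 1 and 5 the log2 fold change was 1.82 (adjusted p = 0.00566), and the other contrasts of Cd38 also kept their side of the threshold.

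In NR-treated aged HSC the mean level was 22.9 ± 11.8 CPM (SD, n = 5), and every library lay below every aged library. The log2 fold change against untreated aged HSC was -1.13 (standard error 0.29, 95% interval -1.74 to -0.52, adjusted p = 0.0247). Of all genes tested, 4.18% were called lower and 3.88% higher after NR, and 4.95% were lower and 3.65% higher without overlap. The exact permutation test gave a difference of -1.42 in log2 CPM (two-sided, adjusted p = 0.0119). The aged libraries serve both this contrast and that with young HSC. Without NR-treated aged replicate 3 the permutation difference was -0.89 in log2 CPM. The decrease was then smaller, with a log2 fold change of -0.87 (adjusted p = 0.0126), but still called. It no longer passed the threshold without aged replicate 3, the deepest library (-1.09, adjusted p = 0.0671), without NR-treated aged replicate 4 (-1.09, adjusted p = 0.0629) or without both the shallowest and the deepest aged libraries (-1.05, adjusted p = 0.111).

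Between NR-treated aged and young HSC Cd38 was not called, except when NR-treated aged replicate 3 was left out. With all libraries the log2 fold change of Cd38 was 0.76 (standard error 0.32, 95% interval 0.10 to 1.42, adjusted p = 0.203) and the NR-treated library was higher in 20 of 25 pairs. The difference did not pass the threshold, nor did it by the exact permutation test (difference 0.45, two-sided, adjusted p = 0.484). Of all genes tested, 2.56% were called higher and 1.91% lower in this contrast, and 2.8% were higher and 1.94% lower without overlap. Without NR-treated aged replicate 3, the remaining 4 libraries held 27.6 ± 6.01 CPM (SD, n = 4) and all lay above every young library. The log2 fold change was then 1.01 (adjusted p = 0.00159), and the exact permutation test gave a difference of 0.98 (two-sided, adjusted p = 0.00794). The order of the group levels was thus aged, NR-treated aged and young, and the last pair was not separated when all libraries were used.

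**Figure D2:**
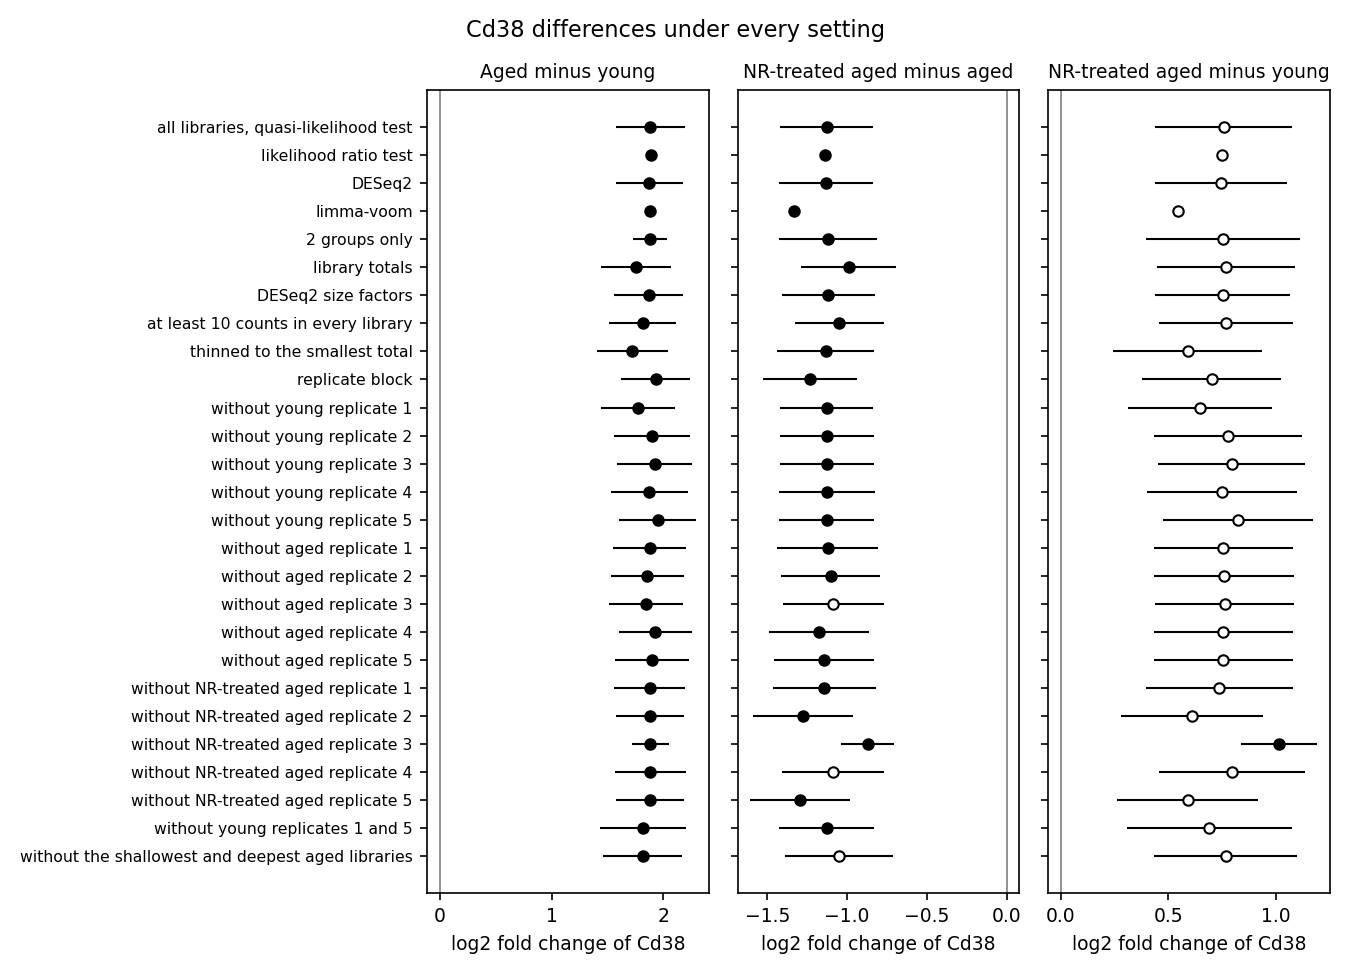
Log2 fold change of Cd38 (x axis) in each contrast under every setting (y axis). Bars are standard errors where the method gives them, filled points have an adjusted p under 0.05 and open points do not. Aged minus young stays between 1.72 and 1.95 and is filled throughout, NR-treated aged minus aged is open in 3 settings, and NR-treated aged minus young is filled only without NR-treated aged replicate 3.

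The spread between mice was widest in NR-treated aged HSC, through replicate 3. The highest level exceeded the lowest by 1.26-fold in aged HSC, by 1.68-fold in young HSC and by 8.47-fold in NR-treated aged HSC, or 1.61-fold without its replicate 3. On the log2 scale the SD was 0.13 in aged HSC, against 0.12 that counting alone would give, and 0.29 in young HSC, against 0.24. The counting value for aged HSC came mostly from replicate 2, with 43 counts. The exact Poisson 95% intervals of aged replicates 3 (50.6 to 59.2 CPM) and 4 (39.1 to 50.3 CPM) narrowly did not overlap. This pair was picked with the values known, and whether the spread of the aged libraries exceeded counting error was not tested. In NR-treated aged HSC the SD was 1.22 against 0.25 from counting, and 0.32 against 0.16 without replicate 3. The 10 counts of replicate 3 have an exact Poisson 95% interval of 1.87 to 7.15 CPM, and the nearest library of the group, replicate 4, has one of 15.5 to 26.6 CPM. On the log2 scale replicate 3 differed from the median of the other 4 libraries by -2.71. Of 10211 genes averaging 5 CPM or more (no predicted genes, clones or pseudogenes), 6, Cd38 included, differed by at least as much in that direction. That library was the lowest of its group for 22.9% of these genes, within the range of 15.7 to 24.9% over the 5 NR-treated libraries.

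Depth varied most among the aged libraries, so all libraries were thinned at random to 764119 counts. Cd38 then had 7 to 15 counts in young, 30 to 49 in aged and 2 to 30 in NR-treated aged HSC. The log2 fold change was 1.72 for aged against young HSC (adjusted p = 0.000689) and -1.14 for NR-treated against untreated aged HSC (adjusted p = 0.0384). With library totals in place of TMM the median over all genes moved to -0.16 and 0.16 in these contrasts, and the difference of Cd38 from that median remained 1.92 and -1.15. Across the 15 libraries, deviations of Cd38 from its group means had a Pearson correlation of 0.08 with the log2 total count (permutation p = 0.414, adjusted 0.414) and a Spearman correlation of 0.07 (permutation p = 0.780, adjusted 0.780). Without aged replicates 2 and 3, the totals farthest from the median, Pearson's r was 0.36.

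The summed share of the listed mature blood cell genes was also highest in aged HSC, apart from young replicate 3. By the study's methods, cells positive for B220, Mac-1, Gr-1 or Ter119 were depleted before the HSC were sorted. B and plasma cell markers (10 of 11 measured), from cells that carry CD38, summed to 93.6 to 495.8 CPM in young, 267.5 to 1375 CPM in aged and 75.1 to 110 CPM in NR-treated aged HSC. Of these, 4 were called higher in aged than in young HSC and 7 were called lower after NR, beside 9.68% and 4.18% of all genes. Neutrophil (9 of 10), erythroid (8 of 8), monocyte and macrophage (4 of 7) and T and NK cell (1 of 7) markers were likewise called lower after NR. Called higher with age were 4 erythroid, 1 neutrophil, 0 monocyte and macrophage and 1 T and NK cell marker. Megakaryocyte and platelet markers (5 of 5 measured) had their highest median in NR-treated aged HSC instead, at 478 to 535 CPM in young, 579 to 956 CPM in aged and 442 to 1195 CPM in NR-treated aged HSC. Young replicate 3 had the highest share of mature cell transcripts of all libraries, 1.26%, and its Cd38 level of 15.3 CPM lay within the range of the other young libraries. Within groups, Cd38 correlated with the mean log2 CPM of the mature cell genes by r = 0.18 (permutation p = 0.399, adjusted 0.414) and rho = 0.28 (permutation p = 0.309, adjusted 0.617) over 15 libraries, and r was 0.27 without young replicates 2 and 3. The part of mature cells in the Cd38 result was not tested further.

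Markers of HSC and of their progeny also moved between the groups. Of the 10 HSC markers 4 were called higher with age, beside 9.68% of all genes. These were Ly6a (log2 fold change 1.21), Procr (1.27), Slamf1 (0.84) and Hoxb5 (0.69). The products of Ly6a and Slamf1, like that of Cd48, were stained for the sort. After NR 1 of the 10, Slamf1, was called lower (-0.51, adjusted p = 0.0288), beside 4.18% of all genes. Its medians were 43.5 CPM in young, 72.0 CPM in aged and 54.4 CPM in NR-treated aged HSC. Of 3 markers of multipotent progenitors, Cd34 (-1.26) and Flt3 (-2.03) were called lower with age, beside 9.63% of all genes. Cd48 (-2.83, adjusted p = 0.00776) was called lower after NR, beside 4.18% of all genes. The list summed to 165 to 246 CPM in young, 85.6 to 119 CPM in aged and 76.0 to 98.4 CPM in NR-treated aged HSC. The part of such shifts in the Cd38 result was not tested. In sorted bulk HSC, a change in the share of cells that carry Cd38 and a change in RNA per cell cannot be told apart.

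The other genes of NAD metabolism moved in both directions. Of 72 such genes listed by role, 61 were measured, and 9 of these (14.8%) were called between aged and young HSC, 5 higher and 4 lower, beside 19.3% of all genes. Between NR-treated and untreated aged HSC 7 (11.5%) were called, 3 higher and 4 lower, beside 8.07% of all genes. Between NR-treated aged and young HSC 3 (4.92%) were called, 1 higher and 2 lower, beside 4.47%. The median log2 fold changes of the 61 genes were -0.03, 0.07 and 0.12 in the 3 contrasts, beside -0.03, 0.02 and -0.00 over all genes.

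**Figure D3:**
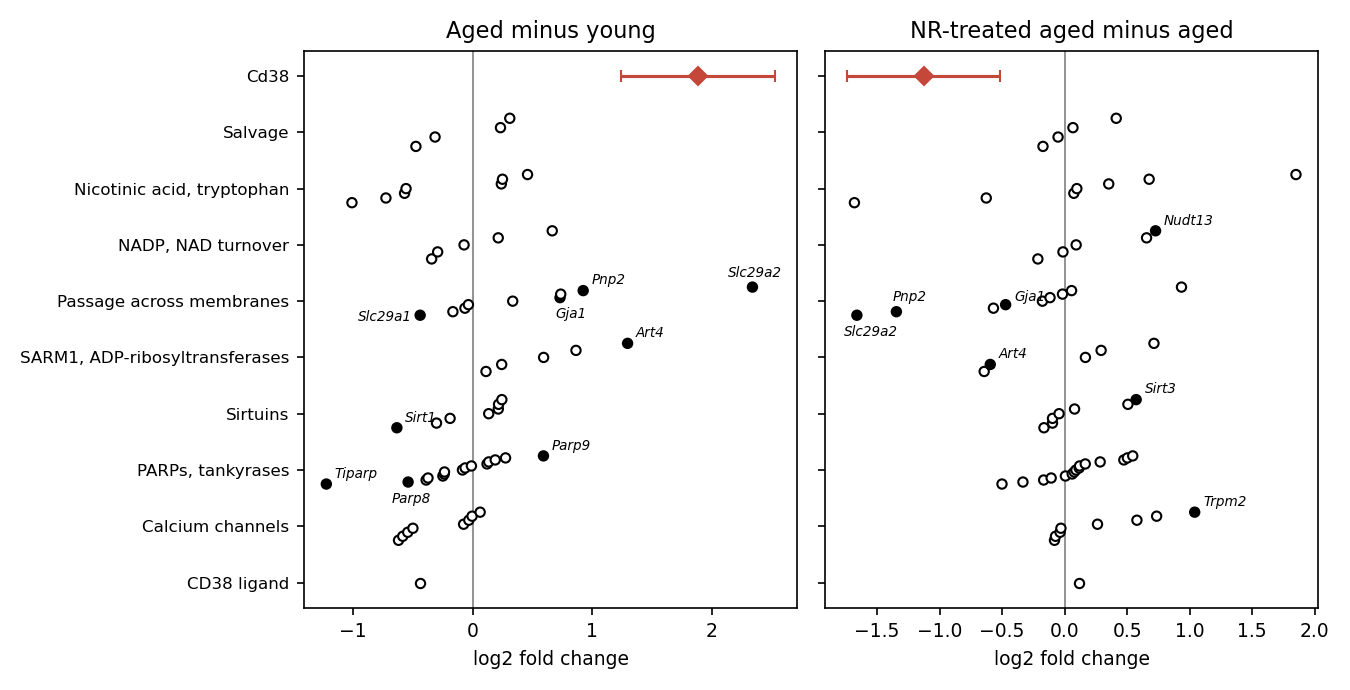
Log2 fold change (x axis) of Cd38 with its 95% interval (red) and of 61 other NAD genes by role (y axis), for aged minus young (left) and NR-treated aged minus aged (right). Filled points have an adjusted p under 0.05 and are named. Cd38 lies at 1.88 and -1.13, and no gene of the salvage route or the nicotinic acid and tryptophan routes is filled.

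None of the 4 genes of NAD salvage was called in any contrast, by edgeR's quasi-likelihood or likelihood ratio test, DESeq2 or limma-voom. At an unadjusted p under 0.05 in the first of these tests, salvage had 2 genes between aged and young HSC, 1 after NR and 0 between NR-treated aged and young HSC. None of the 7 genes of the nicotinic acid and tryptophan routes was called by the quasi-likelihood test, where 0, 1 and 4 had an unadjusted p under 0.05 in the same order of contrasts, but 1 was called after NR by each of the other methods. That gene was Tdo2, the first enzyme of tryptophan breakdown, which averaged 1.38 CPM in aged and 3.59 CPM in NR-treated aged HSC. Haao, an enzyme further along the tryptophan route, was called between NR-treated aged and young HSC by the likelihood ratio test and DESeq2, and both genes were named after their values were seen. Nampt, the rate-limiting enzyme of salvage from nicotinamide, differed by 0.31 on the log2 scale between aged and young HSC (standard error 0.12, adjusted p = 0.0851), and Nmrk1, which phosphorylates NR, by -0.47 (standard error 0.19, adjusted p = 0.0773). After NR, these genes had log2 fold changes of -0.17 and 0.41. Both genes were picked for their role with their values known. Among 5 genes of NADP formation and NAD turnover, Nudt13, a mitochondrial pyrophosphatase of NADH, was called after NR, at 22.0 ± 2.72 CPM in aged and 37.1 ± 5.45 CPM in NR-treated aged HSC (SD, n = 5 each, log2 fold change 0.73, adjusted p = 0.0151).

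Art4, which encodes a lipid-anchored surface protein of the mono-ADP-ribosyltransferase family, was called in all 3 contrasts. It held 81.6 ± 14.8 CPM in young, 199 ± 30.5 CPM in aged and 133 ± 31.2 CPM in NR-treated aged HSC (SD, n = 5 each). It rose by 1.30 on the log2 scale with age (adjusted p = 1.5e-05), fell by 0.59 after NR (adjusted p = 0.0269) and remained 0.70 above young HSC (adjusted p = 0.0134). The call after NR was lost without aged replicate 3 or 5 or without NR-treated aged replicate 3 or 4, and also with library totals in place of TMM (-0.45, adjusted p = 0.0530). The call against young HSC was lost without young replicates 1 and 5 (0.70, adjusted p = 0.0618). The other 4 genes of this role, Sarm1, Art2b, Art3 and Art5, averaged under 4 CPM in every group and were not called. Pecam1, a ligand of CD38, had log2 fold changes of -0.44 with age (adjusted p = 0.0630) and 0.11 after NR. It was not called by the quasi-likelihood test, but the likelihood ratio test, DESeq2 and limma-voom each called it between aged and young HSC.

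Among 9 genes for passage of precursors and NAD across membranes, 3 were called higher and 1 lower with age (44.4%, beside 19.3% of all genes). After NR 3 were called lower (33.3%, beside 8.07% of all genes called in either direction). Gja1, or connexin 43, whose channels pass NAD, rose from 23.6 ± 1.92 to 39.5 ± 3.98 CPM with age and was at 28.3 ± 4.20 CPM after NR (SD, n = 5 each), with log2 fold changes of 0.73 (adjusted p = 0.00104) and -0.47 (adjusted p = 0.0364). Slc29a2, a nucleoside transporter, ranged from 4.77 to 41.8 CPM in aged and from 2.43 to 4.02 CPM in young HSC, so the aged mice differed widely among themselves. Its log2 fold changes were 2.34 (adjusted p = 0.00387) and -1.66 (adjusted p = 0.0387), and without aged replicate 5 they were 1.52 (adjusted p = 0.0151) and -0.85 (adjusted p = 0.200). Pnp2, a purine nucleoside phosphorylase that may share reads with its near-identical copy Pnp and is uncertain for that reason, had log2 fold changes of 0.93 (adjusted p = 0.0311) and -1.35 (adjusted p = 0.0117). The call of Pnp2 with age was lost in 5 of 15 fits that left out 1 library, without young replicates 1 and 5 (1.04, adjusted p = 0.0718) and with library totals (0.78, adjusted p = 0.0577), and that after NR was lost without aged replicate 3. The related transporter Slc29a1, named after its values were seen, had one of -0.44 with age (adjusted p = 0.0493). Calls after NR for Gja1 and Slc29a2 were each lost in 7 of 15 fits that left out 1 library. That of Gja1 was also lost with library totals (-0.33, adjusted p = 0.125), and that of Slc29a2 without young replicates 1 and 5 (-1.67, adjusted p = 0.0516).

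Sirtuins and PARPs consume NAD inside the cell. Of 7 sirtuins 1 (14.3%) was called with age and 1 after NR, beside 19.3% and 8.07% of all genes. The nuclear deacetylase Sirt1 was called lower with age (29.7 ± 7.86 to 18.0 ± 5.87 CPM, SD, n = 5 each, log2 fold change -0.63, adjusted p = 0.0361) and the mitochondrial deacetylase Sirt3 was called higher after NR (log2 fold change 0.57, adjusted p = 0.0340). These calls were lost in 8 and 6 of 15 fits that left out 1 library, and that of Sirt1 also without young replicates 1 and 5 (-0.42, adjusted p = 0.260). Of 15 PARPs and tankyrases, 3 (20.0%) were called with age, near the 19.3% of all genes, and 0 after NR, beside 8.07%. In the latter contrast 4 had an unadjusted p under 0.05. There 1 gene, Parp6, also named after its values were seen, was called by each of the other methods. Tiparp, a mono-ADP-ribosyltransferase induced by the aryl hydrocarbon receptor, fell by 1.22 with age on the log2 scale (adjusted p = 0.000902) and was 1.15 below young HSC in NR-treated aged HSC (log2 fold change -1.15, adjusted p = 0.00395). Parp9 rose by 0.59 (adjusted p = 0.00185) and Parp8 fell by 0.54 (adjusted p = 0.0393, lost in 5 of 15 such fits) with age. Of 8 channels and binding proteins gated by products of CD38, Trpm2, a cation channel opened by ADP-ribose, was called after NR, at 4.29 ± 0.900 CPM in aged and 8.56 ± 2.46 CPM in NR-treated aged HSC (SD, n = 5 each, log2 fold change 1.04, adjusted p = 0.0203). Its call was lost without aged replicate 3 or 5 or NR-treated aged replicate 3 or 5. With all counts thinned to the smallest total, or without the shallowest and deepest aged libraries, none of the 7 NAD genes called after NR passed the quasi-likelihood test, and 10 and 12 of the 61 genes then had an unadjusted p under 0.05. The ryanodine receptors Ryr1, Ryr2 and Ryr3, through which cyclic ADP-ribose releases calcium, were not called in either contrast with aged HSC.

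The genes whose levels were most like those of Cd38 across the 15 libraries were Mboat2 (Pearson r = 0.923), Fam213a (0.922), Chst2 (0.921), Cdkn1c (0.917) and Dnajc15 (0.915), out of 10210 genes averaging 5 CPM or more (no predicted genes, clones or pseudogenes). Libraries of a group share age and treatment, so such values follow the group means in part. With deviations from the group means r was 0.78 to 0.87 for the 5 genes. They were picked by their r over these same libraries, and NR-treated aged replicate 3 lay far below its group mean for Cd38 (2.13 against 4.26 log2 CPM). The deviations therefore give no separate measure of likeness within groups. Chst2, a sulfotransferase that modifies surface glycans, came closest to the size of change of Cd38, at 9.06 ± 2.23 CPM in young, 53.3 ± 6.96 CPM in aged and 18.9 ± 8.50 CPM in NR-treated aged HSC (SD, n = 5 each), and its lowest NR-treated library was also replicate 3, at 7.39 CPM. Cdkn1c, a cyclin-dependent kinase inhibitor known for its part in HSC quiescence, held 68.5 ± 8.67, 125 ± 12.9 and 74.2 ± 21.8 CPM in these groups. Mboat2 is a lysophospholipid acyltransferase, Fam213a a peroxiredoxin-like protein and Dnajc15 a cochaperone of the inner mitochondrial membrane. All 5 genes were lowest in replicate 3 among the NR-treated libraries, which follows in part from choosing them by r over libraries that include it. Without that library, r with the group means left in was 0.860 to 0.975 for them, with Chst2 highest. Of the 5 genes 1, Chst2, was again among the 5 most like Cd38. Deviations without that library were not examined.

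**Figure D4:**
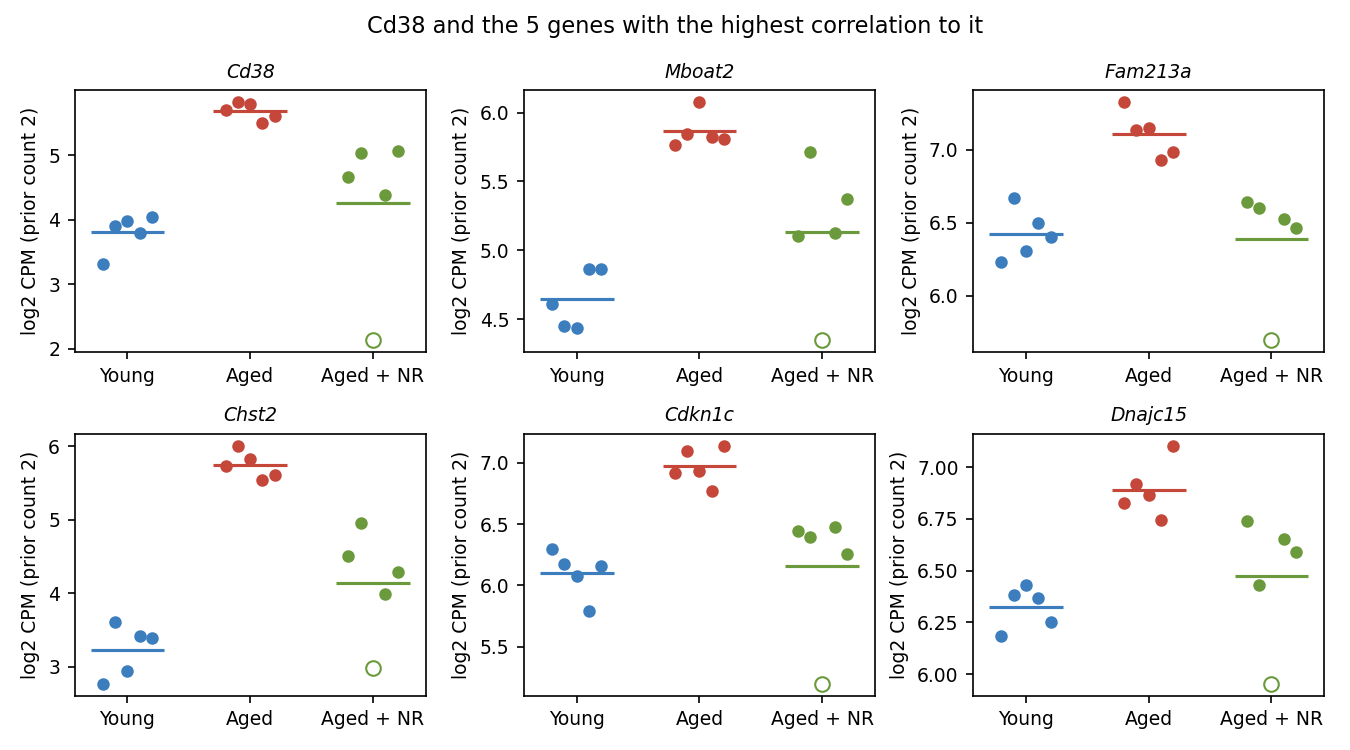
Log2 CPM (y axis, prior count of 2) of Cd38 and the 5 genes with the highest Pearson correlation to it, in young, aged and NR-treated aged HSC (x axis). Points are libraries, lines are group means and the open point is NR-treated aged replicate 3, the lowest NR-treated library in each panel. The 5 genes were chosen over libraries that include this one.

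Genes near Cd38 moved in different directions. Of 36 other annotated genes within 500 kb, 8 were measured. The nearest with more than 10 CPM, Fbxl5, an iron-sensing subunit of a ubiquitin ligase 46.915 kb upstream of Cd38, held 58.5 ± 1.83 CPM in young, 75.8 ± 8.15 CPM in aged and 54.2 ± 2.395 CPM in NR-treated aged HSC (SD, n = 5 each). Its log2 fold changes were 0.39 (adjusted p = 0.0113) and -0.49 (adjusted p = 0.00815), in the directions of Cd38 but smaller. The call of Fbxl5 with age was lost without young replicates 1 and 5 (0.37, adjusted p = 0.0628) and with library totals (0.25, adjusted p = 0.0591). Cc2d2a, a component of the ciliary transition zone, had values of 0.05 and -0.03 and was not called. Downstream, Tapt1 and E430021H15Rik, whose intervals overlap so that reads may be shared, were called lower with age (log2 fold changes -0.75 and -1.02, adjusted p = 0.00583 and 0.00216). Gm5865 was called higher with age (1.03, adjusted p = 0.0459) and Gm7882 higher after NR (1.48, adjusted p = 0.0307), at means under 7 CPM, and these calls were lost in 12 and 5 of 15 fits that left out 1 library, and that of Gm5865 also without young replicates 1 and 5 (adjusted p = 0.122). Prom1 (CD133) and Gm42462 were not called.

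**Figure D5:**
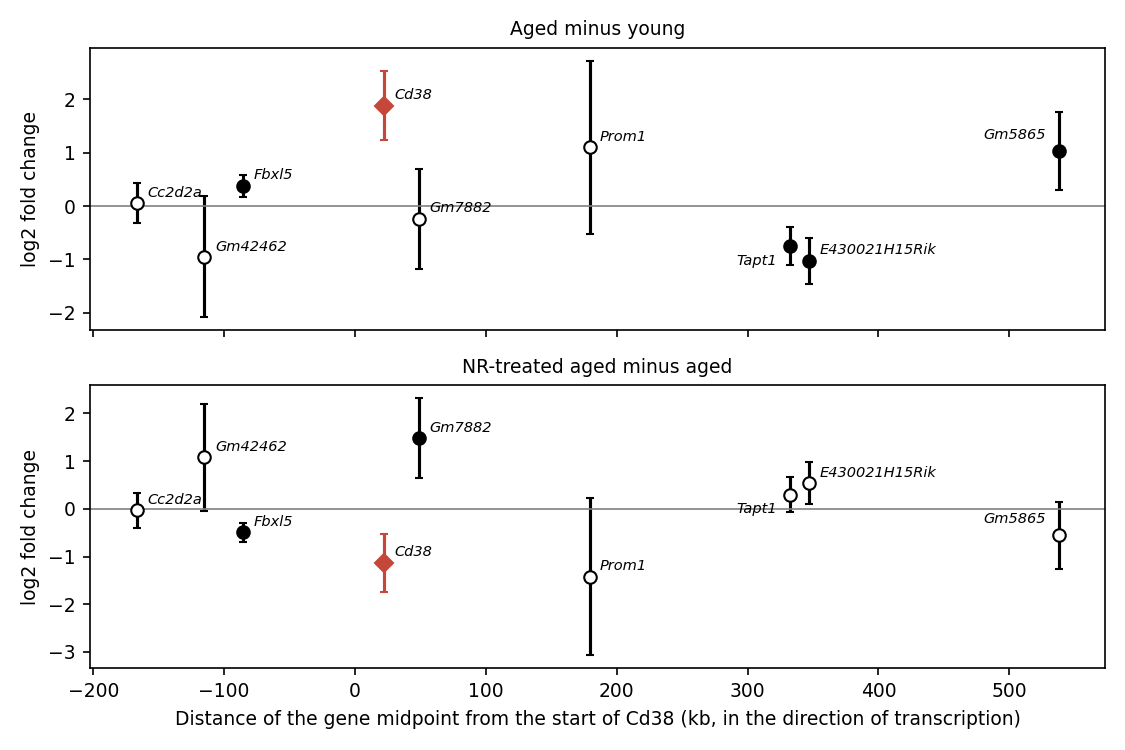
Log2 fold change (y axis) with its 95% interval for Cd38 (red) and the 8 measured genes within 500 kb, by distance of the gene midpoint from the start of Cd38 (x axis, kb). Filled points have an adjusted p under 0.05. Fbxl5 is filled in both contrasts, at 0.39 and -0.49, and Tapt1 and E430021H15Rik are filled below 0 in aged minus young.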

How the data were processed

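RNA from sorted Lin-Sca-1+cKit+CD150+CD48- HSC was sequenced with a 3′ biased method and UMIs of 10 bp. Alignment by the authors used STAR 2.4.2a, reads with duplicated UMIs were removed, and the remainder were counted with featureCounts on GENCODE exons (GRCm38). The authors deposited raw counts for genes that exceeded 5 reads and 2 CPM in 2 or more samples. These counts were fitted with edgeR 4.0.16 (R 4.3.3): TMM, all 15 libraries with no factor besides group, quasi-likelihood tests, and p-values of 16154 genes adjusted by Benjamini and Hochberg's method. Replicates are separate mice by the study's methods. Single values were compared by exact permutation of log2 CPM (prior count of 2), and correlations by 100000 permutations within groups. Intervals and the floor of 3 counts cover counting error only. Likeness to Cd38 was sought among genes averaging 5 CPM or more. Values were tabulated in Python 3.11.15 (pandas 2.3.3, SciPy 1.17.1, NumPy 2.4.6).

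Named genes were Cd38, at most 3 called genes per NAD role with the smallest p, the 5 genes most like Cd38 (no predicted genes, clones or pseudogenes) and all genes within 500 kb. Genes outside this rule are marked in the text where values are given, or named as members of a role. The members and gene lists were chosen with earlier results of these data known. The 3 contrasts of Bst1, its permutation tests, the ratio of Cd38 to Bst1 and the correlations with Bst1 were not run. Replicate numbers were not taken as pairs. Positions come from GENCODE M21, whereas the authors counted on an earlier release. Libraries within a group differed by more than counting noise (chi-square divided by degrees of freedom 3.21 to 17.5, genes of 20 or more counts). The tests were checked on simulated data.

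Alternatives were the likelihood ratio test, DESeq2 1.42.0, limma-voom (limma 3.58.1), fits restricted to the pair of groups, scaling by totals or by the size factors of DESeq2, a minimum of 10 counts in each library (8444 genes), thinned counts, the replicate number as a block, other prior counts, each library left out and young replicates 1 and 5 left out. Leaving out the shallowest and deepest aged libraries (aged replicates 2 and 3) together, and the search for similar genes without NR-treated aged replicate 3, were added after seeing the data.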

Additional observations from a re-analysis of the deposited data

Results flagged for a closer look

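In each group of 5 libraries, the gap between the most extreme library and its neighbour was compared with the range of the group. Over 25 genes, 9 of 75 groups had a gap larger than Dixon's 95% critical value (0.71), where chance gives about 1 in 20.

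Cd38 in NR-treated aged replicate 3 was at 2.13 log2 CPM, with the next library at 4.39 and the gap covering 0.77 of the range. In the same library Fam213a was at 5.7 and Cdkn1c at 5.2 log2 CPM, the lowest of their group, with the next libraries at 6.47 and 6.26. Both genes were chosen for their likeness to Cd38 over libraries that include this one. A cause was not tested.

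Sirt1 was lowest in young replicate 2 (4.09 log2 CPM) and in aged replicate 2 (3.05 log2 CPM), the shallowest library. Tiparp was highest in young replicate 2 at 7.24 log2 CPM. Mboat2 was highest in aged replicate 3, the deepest library, at 6.07 log2 CPM. Gm42462 was highest in young replicate 4 at 2.48 log2 CPM, and E430021H15Rik was lowest in NR-treated aged replicate 1 at 3.81 log2 CPM.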

How the results depend on the processing

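No direction was reversed. The log2 fold change of Cd38 stayed between 1.78 and 1.95 for aged against young HSC over 15 fits that left out 1 library (adjusted p at most 0.00164), and between 1.72 and 1.93 over 11 other settings, called in each. For NR-treated against untreated aged HSC it was -1.29 to -0.87 (adjusted p 0.0126 to 0.0671, 13 of 15 called) and -1.33 to -0.99 (10 of 11 called), the exception being the fit without the shallowest and deepest aged libraries (-1.05, adjusted p = 0.111). For NR-treated aged against young HSC it was 0.59 to 1.01 (1 of 15 called) and 0.55 to 0.77 (0 of 11 called). The exact permutation differences ranged from 1.75 to 1.93, from -1.63 to -0.89 and from 0.25 to 0.98 with 1 library left out. Without the shallowest and deepest aged libraries they were 1.79 (adjusted p = 0.0536) and -1.34 (adjusted p = 0.107). The first of these came from the smallest p that the remaining libraries allow (exact permutation, 0.0179 before adjustment).

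Libraries of the same replicate number had a mean correlation of deviations of 0.00211, with 1 of 15 pairs over 0.1. By pair of groups the correlation was -0.01 to 0.13 for young with aged and -0.10 to 0.04 for young with NR-treated aged libraries. For aged with NR-treated aged libraries it was -0.27 to 0.08. Whether the numbers mark a shared batch was not tested. With the replicate block, Cd38 had log2 fold changes of 1.93 (adjusted p = 0.000544), -1.23 (adjusted p = 0.0242) and 0.70 (adjusted p = 0.283), and 2836, 1048 and 589 genes were called, against 3120, 1303 and 722 without it. Sign-flip permutation within replicate numbers gave 1.87 and -1.42 (exact, adjusted p = 0.0938 each) and cannot reach 0.05 with 5 pairs.

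Genes called between aged and young HSC fell from 3120 to 1467 with thinned counts, 1862 without young replicates 1 and 5 and 1472 without the shallowest and deepest aged libraries, and ranged from 1953 (without aged replicate 3) to 3533 with 1 library left out. Those called after NR fell from 1303 to 783 with at least 10 counts in every library, 409 with thinned counts and 227 without the shallowest and deepest aged libraries, and ranged from 422 (without aged replicate 3) to 1535. Those between NR-treated aged and young HSC fell from 722 to 401 with thinned counts and ranged from 452 (without NR-treated aged replicate 4) to 922. Of the NAD genes, 9 with age became 5 with thinned counts and 5 without the shallowest and deepest aged libraries (5 to 10 with 1 library left out, lowest without young replicate 3 or aged replicate 5). The 7 after NR became 4 with at least 10 counts in every library and 0 by edgeR's quasi-likelihood test with thinned counts (10 at an unadjusted p under 0.05) and without the shallowest and deepest aged libraries (12), whereas the likelihood ratio test, DESeq2 and limma-voom called 9, 9 and 8 (1 to 8 with 1 library left out, lowest without aged replicate 3). The 3 between NR-treated aged and young HSC became 1 without young replicates 1 and 5 (2 to 3 with 1 library left out). With library totals, 29.1% of calls were higher with age against 50.1% with TMM, and 78.4% against 48.1% after NR.

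Over the 33 other calls of named genes, 715 of 849 fits kept direction and threshold and 134 kept the direction only. With Spearman's rho 2 of the 5 genes most like Cd38 were again among the first 5, with deviations from the group means 1, and without NR-treated aged replicate 3 also 1. No result for Bst1 was run.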
